A study of Homo sapiens with 18 samples.

Results

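The zinc finger genes of chromosome band 19q13.12 were examined as 1 group of neighbouring genes. The group was defined by a list of 30 gene symbols of that band, chosen because the band holds ZNF585B, and all 30 were among the 27130 symbols of the deposited read counts. Polyadenylated RNA had been sequenced from human embryonic stem cells of the established lines H1 and H9, to ask what the zinc finger factor ZNF263 does in pluripotency. The replicated groups held 3 libraries each: H1 clone 1-10, H1 wild type, H9 clone 9-1, H9 clone 9-D and H9 wild type. Clones 1-10, 9-1 and 9-D carry a homozygous deletion of ZNF263 made with Cas9, and each is a single clone, so effects of the knockout and peculiarities of a clone cannot be told apart. A further 3 H1 libraries held 1 each of clone 1-5, a heterozygous knockout, clone 1-10 and wild type. The labels do not say that the H1 and H9 libraries were handled together, so line and handling cannot be told apart. They also do not say that replicates were separate cultures, so p-values measure only the spread between these libraries.

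Most zinc finger proteins of this band carry a KRAB domain in front of an array of zinc fingers. The fingers read DNA, often within transposable elements, and the KRAB domain recruits TRIM28, which brings the histone methyltransferase SETDB1 and leads to heterochromatin. KRAB zinc finger genes arose by repeated duplication and stand in clusters, many of them on chromosome 19, so that neighbours are often related in sequence. In pluripotent cells this system silences retroelements and helps keep imprints. A few members differ from the plan: ZNF146 and ZNF260 consist almost wholly of zinc fingers and have no KRAB domain, and RefSeq annotates ZNF781 as a transcribed pseudogene.

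The member the results turn on is ZNF585B, which lies next to its near copy ZNF585A on the same strand. Their promoters are shown because one of these genes changed state between groups and the other did not, and that of ZNF850 because it was the member with the next largest difference between the wild-type lines. Each window runs from 250 bases before to 50 bases after a RefSeq transcription start in GRCh38.p14, on the minus strand, at chr19:37210487-37210786 for ZNF585B, chr19:37172646-37172945 for ZNF585A and chr19:36772758-36773057 for ZNF850. Capitals mark CG dinucleotides, the sites of DNA methylation.
ZNF585B: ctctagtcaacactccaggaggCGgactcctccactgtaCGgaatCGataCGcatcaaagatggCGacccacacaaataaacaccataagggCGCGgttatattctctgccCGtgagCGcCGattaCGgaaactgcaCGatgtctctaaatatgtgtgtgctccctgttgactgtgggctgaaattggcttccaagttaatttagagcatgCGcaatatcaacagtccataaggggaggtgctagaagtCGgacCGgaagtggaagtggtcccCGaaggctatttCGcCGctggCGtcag
ZNF585A: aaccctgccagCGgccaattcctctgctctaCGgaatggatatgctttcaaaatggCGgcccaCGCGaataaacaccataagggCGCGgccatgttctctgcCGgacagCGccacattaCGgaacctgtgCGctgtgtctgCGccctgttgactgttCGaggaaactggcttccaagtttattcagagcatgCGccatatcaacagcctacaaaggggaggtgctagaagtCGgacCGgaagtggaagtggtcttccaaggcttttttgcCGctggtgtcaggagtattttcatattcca
ZNF850: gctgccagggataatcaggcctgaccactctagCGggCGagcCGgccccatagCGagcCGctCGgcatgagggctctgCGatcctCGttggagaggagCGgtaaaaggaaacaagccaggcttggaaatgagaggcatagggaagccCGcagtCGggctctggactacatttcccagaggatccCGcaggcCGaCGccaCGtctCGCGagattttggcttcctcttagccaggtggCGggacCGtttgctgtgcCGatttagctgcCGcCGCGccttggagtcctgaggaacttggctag

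The windows of ZNF585B and ZNF585A aligned over 280 bases, of which 230 were identical (82.1%), and the longest identical run was 41 bases. They held 19 and 17 CG, of which 11 stood at the same aligned position. The ZNF850 window held 23 CG. Of the 30 members, 27 matched a window in the RefSeq promoter table, and the others were ZFP14, ZNF571 and ZNF781. The 48 windows of the 27 members held 9 to 37 CG, with a median of 21.5, against a median of 14 over all 35116 windows. The motif GGGAGGA, a core of sequences reported to be bound by ZNF263, was searched on both strands, with overlaps allowed. It was found in 5 of the 48 member windows (10.4%), those of ZNF565, ZNF146, ZNF420 and ZNF570, against 18.1% of all windows, and not in the 3 windows printed here.

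Library totals were 9.66 to 21.0 M counts, and a count of 0 allowed up to 3 counts, or 0.143 to 0.31 CPM (counts scaled to a common library total) by library, for counting error only. ZNF263 itself was at 32.6, 33.7 and 36.1 CPM in H1 clone 1-10, against 40.5, 42.0 and 39.7 CPM in H1 wild type. It was at 37.2, 36.1 and 34.3 CPM in H9 clone 9-1 and at 35.3, 35.2 and 37.7 CPM in clone 9-D, against 39.5, 44.0 and 42.6 CPM in H9 wild type. Per total counts, the single H1 libraries had 31.6 CPM in heterozygous clone 1-5 and 33.1 CPM in clone 1-10, against 39.8 CPM in wild type. Most ZNF263 RNA thus remained in the knockouts, and the labels do not name the edited part. The RNA level did not set the heterozygous clone apart from the homozygous one. The 6 stem cell markers summed to between 5710 and 8040 CPM over the 15 libraries. The 10 markers of early differentiation summed to 11.1 to 17.1 CPM in H1 clone 1-10, against 30.4 to 33.5 CPM in H1 wild type, and 5 of the 7 tested fell there. In H9 they summed to 6.37 to 26.5 CPM in clone 9-1 and 7.45 to 17 CPM in clone 9-D, against 7.56 to 10.4 CPM in wild type. Clone 9-1 replicate 3 stood apart, with 9.62 CPM of MIXL1 and 6.37 CPM of EOMES, against at most 1.72 and 0.666 CPM in the other 9-1 libraries. The 8 fibroblast and feeder markers summed to between 577 and 922 CPM. Most of this came from THY1 (361 to 501 CPM), COL1A2 (119 to 251 CPM) and COL1A1 (64.7 to 272 CPM), while DCN and LUM had at most 0.194 CPM in any library. The sum therefore does not tell whether fibroblasts or feeder cells were present.

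A gene was called on in a group when every library had at least 1 CPM and off when every library had less than 0.5 CPM, with CPM scaled by edgeR's TMM method over the 15 replicated libraries. By this rule 27 of the 30 members were on in all 5 groups (90%). Of the other chromosome 19 zinc finger genes, 196 of 243 were on in all groups (80.7%), as were 247 of 320 zinc finger genes elsewhere (77.2%) and 48% of all genes. The lists of other zinc finger genes were taken by symbols starting with ZNF or ZFP, so they also hold antisense RNAs and pseudogenes. ZNF529-AS1 and ZNF571-AS1 stand there and also among the genes between members. ZNF585B was the single member that was on in some groups and off in another (3.33% of members, against 0.929% of all genes). The band was chosen with the rise of ZNF585B in H9 known, so the members' share is no evidence about the band. The share was 3.29% of the other chromosome 19 zinc finger genes, 2.81% of zinc finger genes elsewhere and 22.2% of the 9 counted genes between members. ZNF585B was on in H1 clone 1-10, H1 wild type and both H9 knockout clones and off in H9 wild type. Among all 27130 genes no other had this pattern by this rule (0.00369%). As ZNF585B was chosen for its rise in H9, this is no independent support. FOXA2 came near the pattern, being on in the same groups and intermediate in H9 wild type (0.344 to 0.642 CPM). The off call of ZNF585B is close to its limit, since H9 wild-type replicate 3 stood at 0.492 CPM. With CPM by total counts, or with on at 2 CPM and off under 0.25 CPM, 0 members were on in 1 group and off in another. In bulk RNA, fewer cells with the transcript and less transcript per cell cannot be told apart.

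**Figure D1:**
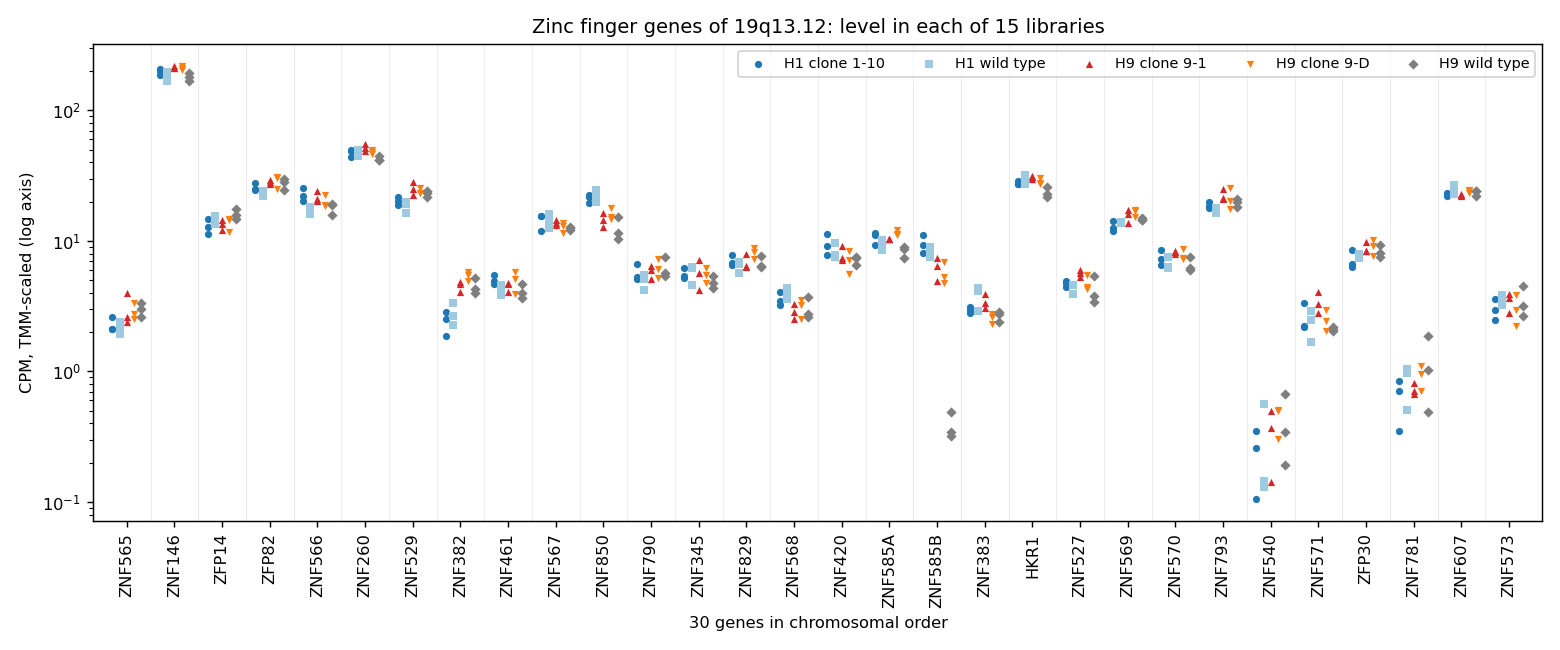
Level of each of the 30 genes in the 15 replicated libraries, in TMM-scaled CPM on a log axis, with genes in chromosomal order and one symbol per library. ZNF585B in H9 wild type (0.321 to 0.492 CPM) lies apart from its other libraries (4.74 to 11.0 CPM), while ZNF540 and ZNF781 are low in every group.

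ZNF585B had 9.32, 8.07 and 11.0 CPM in H1 clone 1-10, against 8.57, 7.55 and 8.96 CPM in H1 wild type. In H9 it had 6.44, 7.44 and 4.95 CPM in clone 9-1 and 6.85, 4.74 and 5.27 CPM in clone 9-D, against 0.321, 0.344 and 0.492 CPM in H9 wild type. The 3 H9 wild-type libraries held 5, 5 and 8 reads of this gene, and every other replicated library held 67 or more. The H1 groups overlapped, and neither H9 clone overlapped H9 wild type.

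Log2 fold changes are given ± their standard error (SE). By the quasi-likelihood test of edgeR, Benjamini-Hochberg adjusted over all genes, ZNF585B rose in clone 9-1 by a log2 fold change of 4.0 ± 0.28 (adjusted p = 8.73e-14), a 16-fold difference. In clone 9-D the log2 fold change was 3.83 ± 0.29 (adjusted p = 4.02e-13, same edgeR test), a 14.2-fold difference. Both clones were compared with the same wild-type libraries, and the band was chosen with the rise of ZNF585B in H9 known, so these tests are no independent evidence of it. By size of the log2 fold change, ZNF585B stood 9th of 1965 genes that rose in clone 9-1 and 5th of 1770 in clone 9-D. These ranks rest on the same libraries and the same choice, so they add no support. Between the clones, 9-D over 9-1, the log2 difference was -0.17 (95% interval -0.52 to 0.18, adjusted p = 0.898, edgeR). In H1 it was 0.15 (95% interval -0.14 to 0.43, adjusted p = 0.545, edgeR), so the interval excludes a rise of the size seen in H9. The knockout effect in H9 minus that in H1 was 3.77 on the log2 scale (SE 0.32, adjusted p = 5.5e-12, edgeR over 15 libraries), the mean of both H9 clones being used. H9 wild type lay below H1 wild type by a log2 fold change of -4.40 ± 0.27 (adjusted p = 1.41e-17, edgeR). Each of these 4 calls was kept when any 1 library was left out. The difference of effects and the difference between wild-type lines use the same H9 wild-type libraries, so they are no independent evidence either.

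The summed level of the 6 stem cell markers also differed within H9, at 6620 to 6820 CPM in clone 9-1 and 6780 to 6920 CPM in clone 9-D, against 5710 to 5870 CPM in H9 wild type. It was 7540 to 8040 CPM in H1 clone 1-10, against 6860 to 7280 CPM in H1 wild type, where ZNF585B was on in both. In H9, 4 of the 6 rose in each clone. Of the 10 markers of early differentiation, 6 were tested in H9, and FOXA2 and GATA6 rose in both clones. FOXA2, an endoderm factor, had 1.41, 1.53 and 2.26 CPM in clone 9-1 and 2.09, 1.20 and 1.45 CPM in clone 9-D, against 0.642, 0.344 and 0.369 CPM in H9 wild type. Its log2 fold changes were 1.9 ± 0.38 (adjusted p = 0.00018) in 9-1 and 1.8 ± 0.38 (adjusted p = 0.000448) in 9-D by edgeR, and it had 3.41 to 4.51 CPM in H1 clone 1-10, against 3.03 to 5.45 CPM in H1 wild type. Like ZNF585B, FOXA2 was thus lowest in H9 wild type, but not all these markers were. GATA6 averaged 1.33 ± 0.771 CPM in 9-1 and 1.34 ± 0.511 CPM in 9-D, against 0.502 ± 0.165 CPM in H9 wild type (SD, n = 3 each). Clone 9-1 overlapped wild type, and GATA6 was lowest in H1 clone 1-10, at 0.297 CPM, against 1.18 CPM in H1 wild type. PAX6 averaged 1.34 CPM in 9-1 and 1.01 CPM in 9-D, against 1.73 CPM in H9 wild type. SOX1 averaged 0.209 and 0.158 CPM, against 0.455 CPM. Neither was called lower. Of the 8 fibroblast and feeder markers, 5 were tested in H9. COL1A1 rose in both clones, to 217 to 258 CPM in 9-1 and 241 to 272 CPM in 9-D, against 152 to 176 CPM in H9 wild type, and was at 64.7 to 113 CPM in the H1 libraries. THY1 and POSTN fell in both clones and COL1A2 in 9-1. The part of these markers in the ZNF585B difference was not tested. Without clone 9-1 replicate 3 the log2 fold change of ZNF585B in 9-1 was 4.14 (adjusted p = 1.41e-14, edgeR).

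The single H1 libraries gave ZNF585B 95 reads in heterozygous clone 1-5 and 105 reads in clone 1-10, against 94 reads in wild type. Per total counts the ratios to wild type were 0.854 for clone 1-5 (exact 95% counting interval 0.636 to 1.15) and 0.929 for clone 1-10 (0.697 to 1.24). These 3 libraries have no replicates, and the intervals cover counting error only. Over all 30 members the median ratio was 0.87 in clone 1-5 and 0.988 in clone 1-10. The interval lay below 1 for 5 members in clone 1-5, namely ZNF146, ZNF382, ZNF829, HKR1 and ZFP30, and for 3 in clone 1-10, namely ZNF565, ZNF529 and ZNF793. It lay above 1 for 0 members in either library. Among genes with at least 20 reads in the pair of libraries, the share with an interval below 1 was 17.2% of 29 members in clone 1-5, against 13.4% of all 14399 genes, and 10.3% of 29 in clone 1-10, against 12% of 14339. The share above 1 was 0% of members in both, against 9.8 and 7.72% of all genes. The median ratio among these genes was 0.866 over the members and 0.983 over all genes in clone 1-5, and 0.992 and 0.984 in clone 1-10.

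The genes on either side of ZNF585B did not share its change of state. ZNF585A, its near copy, had 11.4, 9.24 and 11.1 CPM in H1 clone 1-10, against 9.53, 8.58 and 10.1 CPM in H1 wild type. In H9 it had 10.4, 10.3 and 10.3 CPM in clone 9-1 and 11.1, 11.2 and 12.2 CPM in clone 9-D, against 9.05, 8.66 and 7.38 CPM in H9 wild type. It was therefore on in every group, and each H9 knockout library lay above each H9 wild-type library. Its mean, like that of ZNF585B, was lowest in H9 wild type (8.36 CPM), though by far less. ZNF585A rose in clone 9-D by a log2 fold change of 0.46 ± 0.12 (adjusted p = 0.00391, edgeR, Benjamini-Hochberg). In clone 9-1 the log2 fold change was 0.30 ± 0.12 (adjusted p = 0.0644) and in H1 0.15 ± 0.13 (adjusted p = 0.491), and neither passed the edgeR test.

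ZNF383, the KRAB zinc finger gene on the other side, had 2.96, 2.81 and 3.14 CPM in H1 clone 1-10, against 2.88, 4.32 and 4.12 CPM in H1 wild type. It had 3.04, 3.34 and 3.89 CPM in H9 clone 9-1 and 2.32, 2.76 and 2.60 CPM in clone 9-D, against 2.38, 2.75 and 2.83 CPM in H9 wild type. No knockout comparison of ZNF383 passed the threshold, with log2 fold changes of -0.38 in H1, 0.36 in clone 9-1 and -0.06 in clone 9-D.

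**Figure D2:**
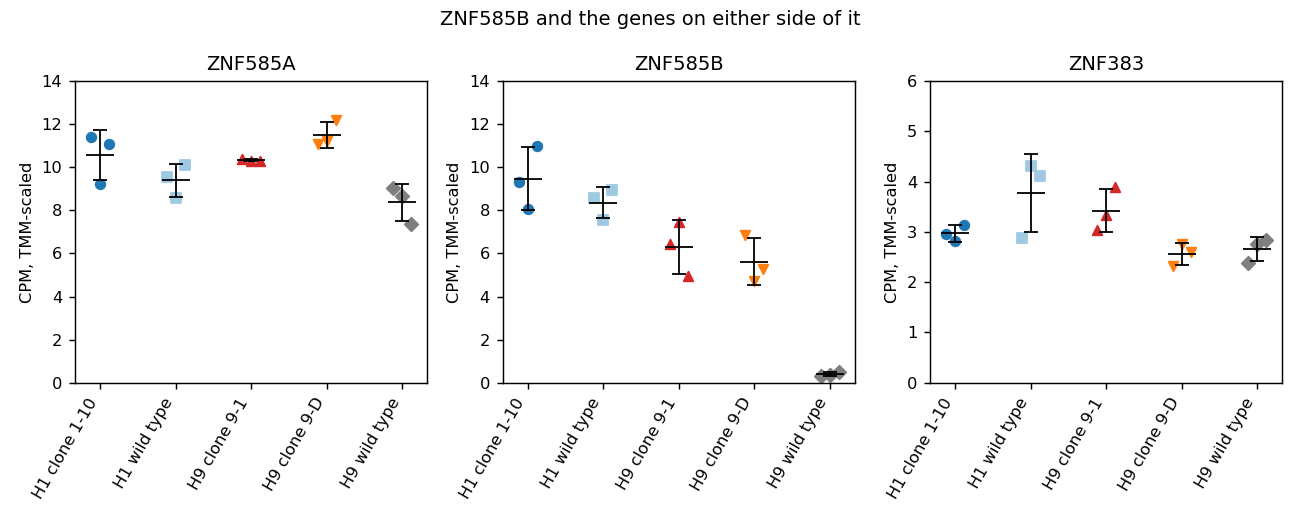
ZNF585B between the genes that flank it, in TMM-scaled CPM for each of 15 libraries, with the mean as a line and the SD as whiskers (n = 3 per group). ZNF585B is near 0 in H9 wild type alone (0.385 ± 0.0929 CPM), while ZNF585A and ZNF383 are on in all 5 groups.

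Reads of close copies can be split or lost in counting. Of the 100-base stretches in the exons of ZNF585B, 8.14% also occurred in ZNF585A and 17.1% in any other gene of GENCODE v29, an annotation of another build than that used for counting. At 50 bases the shares were 15.5% and 27.6%. The read length is not given in the sources used here. As a share of ZNF585A reads in the same library, ZNF585B reads were 81.9 to 99.1% in H1 clone 1-10, against 88 to 89.9% in H1 wild type. They were 48.3 to 72.2% in clone 9-1 and 42.1 to 61.7% in clone 9-D, against 3.55 to 6.67% in H9 wild type. Over its 3 libraries, H9 wild type held 18 reads of ZNF585B beside 387 of ZNF585A. The part of the counting of close copies in the low value was not tested.

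Beyond ZNF585B, each member that changed in a knockout of ZNF263 did so by less than 2-fold. In each knockout comparison 29 of the 30 members had enough reads to be tested, and every member that passed the threshold of 0.05 on adjusted p was higher in the knockout. Calls among the other chromosome 19 zinc finger genes also leaned upward, with 12 higher and 5 lower in H1 (210 tested). There were 49 higher and 16 lower in clone 9-1 and 43 and 15 in clone 9-D (218 tested). Zinc finger genes elsewhere had 13 and 16, 29 and 22, and 29 and 25 in the same order. ZNF540 was left out by the filter on low counts, with 1 to 11 reads per library and 0.105 to 0.676 CPM, and was never on. ZNF585B was the single member that passed with at least a 2-fold change in any comparison, against 1.38% of all genes tested in H1, 3.21% in clone 9-1 and 2.95% in clone 9-D.

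In H1, 1 of 29 members passed (3.45%), against 12.3% of 14897 genes tested, of which 5.01% rose and 7.25% fell. With the replicate number as a block, 2926 of all genes passed, against 1827 without it, and 1 member still did. This was ZNF566, a KRAB zinc finger gene, with 21.9, 20.2 and 25.5 CPM in clone 1-10, against 16, 16.1 and 18.2 CPM in H1 wild type. The groups did not overlap, and the log2 fold change was 0.40 ± 0.10 (adjusted p = 0.00948, edgeR, Benjamini-Hochberg). The call was lost without clone 1-10 replicate 3 (log2 fold change 0.31, adjusted p = 0.0692). Every clone 1-10 library lay above every wild-type library for 3 members, ZFP82, ZNF566 and ZNF461 (10.3%, against 15.9% of all genes tested), and below for 0 (against 14.3%). The median log2 fold change was 0.05 over the 29 members, with 15 above 0 and 14 below, and 0.00 over all genes. At an unadjusted p under 0.05, 0 members were lower by edgeR, against 2050 of 14897 genes, and DESeq2 called ZNF566 alone. In the authors' deposited table for H1, 1 member was higher and 0 lower at an adjusted p under 0.05, ZNF566 with a log2 fold change of 0.41. That was 3.45% of 29 members with a value, against 10.7% of 15060 genes in the authors' deposited table, with 808 genes higher and 806 lower.

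In H9 clone 9-1, 6 of 29 members passed (20.7%), against 26.3% of 15411 genes tested, and all 6 rose. Genes that rose made up 12.8% of all genes tested and genes that fell 13.5%. Beside ZNF585B these were ZNF571, ZNF566, HKR1, ZNF260 and ZNF146. The median log2 fold change of the 29 members was 0.13 (0.00 over all genes), with 23 above 0 and 6 below. Every 9-1 library lay above every wild-type library for 11 members (37.9%, against 20.7% of all genes tested), and every one lay below for 1 member, ZFP14 (3.45%, against 19.4%). ZFP14 had an unadjusted p of 0.0286 in edgeR, the only lower member under 0.05 (against 2863 of 15411 genes), and DESeq2 called 0 lower members.

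In clone 9-D, 5 of 29 members passed (17.2%), against 23.5% of 15411 genes, and all 5 rose: ZNF585B, ZNF585A, ZNF850, HKR1 and ZNF146. Genes that rose made up 11.5% and genes that fell 12% of all genes tested. The members' median log2 fold change was 0.15 (-0.01 over all genes), with 22 above 0 and 7 below. Groups did not overlap for 6 members that were higher (20.7%, against 18.2% of all genes tested) and for 0 that were lower (against 17.6%). At an unadjusted p under 0.05, edgeR gave 1 lower member, ZFP14 again, against 2693 of 15411 genes, and DESeq2 called 0. Both clones were set against the same 3 wild-type libraries, so their counts are not independent. In the authors' deposited table, which sets both clones together against wild type, 5 members were higher and 0 lower at an adjusted p under 0.05: ZNF585B, ZNF585A, HKR1, ZNF260 and ZNF146. That was 16.7% of the members, against 25.3% of 16799 genes in the authors' deposited table, with 2207 genes higher and 2048 lower.

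**Figure D3:**
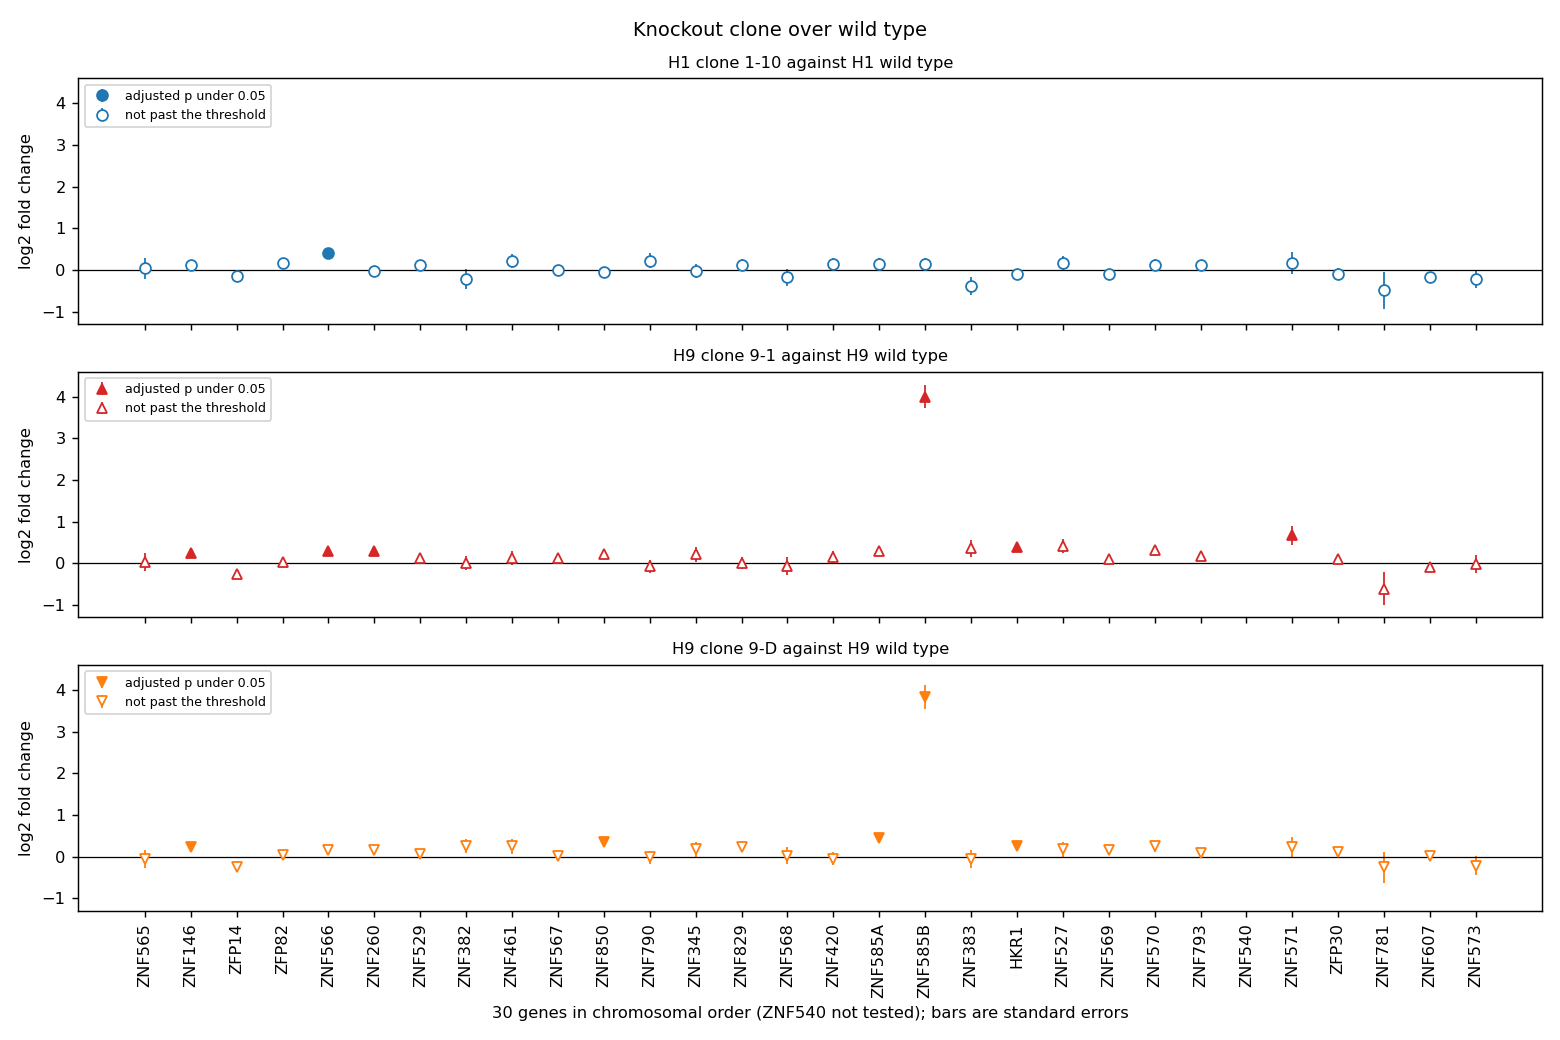
Log2 fold change of each tested gene in chromosomal order, knockout clone over wild type of the same line, with standard errors as bars and filled symbols where edgeR's adjusted p is under 0.05. All filled symbols lie above 0, and those of ZNF585B at 4.0 and 3.83 are the only ones past a 2-fold change.

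ZNF146, a protein made almost wholly of zinc fingers that is overproduced in some carcinomas, had the highest level of the group per exon length, at a median of 52.1 CPM per kb over the 15 libraries. It had 211, 220 and 211 CPM in clone 9-1 and 218, 211 and 203 CPM in clone 9-D, against 167, 194 and 179 CPM in H9 wild type. No knockout library overlapped wild type, and the log2 fold changes were 0.24 ± 0.059 (adjusted p = 0.00173) in 9-1 and 0.22 ± 0.059 (adjusted p = 0.00469) in 9-D by edgeR's Benjamini-Hochberg adjusted test. The 9-D call was lost without H9 wild-type replicate 1 (log2 fold change 0.17, adjusted p = 0.0602).

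HKR1, a KRAB zinc finger gene that RefSeq lists as ZNF875, had 31.5, 29.9 and 31.0 CPM in clone 9-1 and 30.3, 27.1 and 27.6 CPM in clone 9-D, against 25.9, 21.7 and 22.8 CPM in H9 wild type. In H1 it had 27.5, 27.5 and 29 CPM in clone 1-10, against 28.9, 32.2 and 27.5 CPM in wild type. The H9 groups stood apart, whereas the H1 groups overlapped. Its log2 fold change was 0.38 ± 0.084 in 9-1 (adjusted p = 0.000646), 0.27 ± 0.085 in 9-D (adjusted p = 0.0191) and -0.09 in H1 (adjusted p = 0.522, all by edgeR, Benjamini-Hochberg). The 9-D call was lost in 3 of 9 fits that left out 1 library, without wild-type replicate 2 (adjusted p = 0.0995), wild-type replicate 3 (0.0804) or 9-D replicate 1 (0.093). The H9 effect minus the H1 effect was 0.42 ± 0.11 (adjusted p = 0.0112, edgeR), a call lost without H1 wild-type replicate 2 (adjusted p = 0.0637). With ZNF585B, HKR1 made 2 of 29 members whose knockout effect differed between the lines (6.9%, against 9.21% of 15802 genes tested). Both differences were positive, as were 5.21% of all genes tested, and that of ZNF585B was at least 2-fold, against 1.96%. Both use the same H9 wild-type libraries, in which both genes were also lower than in H1 wild type.

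ZNF260, whose rodent counterpart was described in heart muscle as a partner of GATA4, had 49.2, 55.2 and 51.6 CPM in clone 9-1 and 49.8, 48.1 and 45.9 CPM in clone 9-D, against 41.5, 44.7 and 41.4 CPM in H9 wild type. It rose in 9-1 by a log2 fold change of 0.29 ± 0.070 (adjusted p = 0.00196, edgeR, Benjamini-Hochberg), and its value in 9-D was 0.17 (adjusted p = 0.0877). ZNF566 rose in 9-1 by 0.29 ± 0.099 (adjusted p = 0.0291) and ZNF571 by 0.67 ± 0.22 (adjusted p = 0.024), both by the same edgeR test. ZNF571 had 2.81, 3.29 and 4.03 CPM in 9-1, against 2.12, 2.20 and 2.03 CPM in H9 wild type. Both calls depended on single libraries. ZNF566 lost its call without H9 wild-type replicate 1 (adjusted p = 0.191) or 9-1 replicate 2 (0.241). ZNF571 lost its call in 4 of 9 such fits, without wild-type replicate 1 (0.0567) or 3 (0.0728) or 9-1 replicate 2 (0.0552) or 3 (0.125). DESeq2 gave adjusted p = 0.0672 for ZNF566 and 0.069 for ZNF571.

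ZNF850, a KRAB zinc finger gene, had 12.8, 14.5 and 16.3 CPM in clone 9-1 and 17.9, 14.8 and 15.2 CPM in clone 9-D, against 10.4, 11.5 and 15.2 CPM in H9 wild type. Both clones overlapped H9 wild type. It rose in 9-D by a log2 fold change of 0.36 ± 0.12 (adjusted p = 0.0256, edgeR, Benjamini-Hochberg), and its value in 9-1 was 0.23 (adjusted p = 0.176). The 9-D call was lost without H9 wild-type replicate 1 (adjusted p = 0.194) or 2 (0.0974) or 9-D replicate 1 (0.139), and in DESeq2 (0.0617).

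Set against each other, the H9 clones had no member past the threshold in edgeR (0 of 29, against 0.305% of 15411 genes, all 9-D over 9-1), and 0 with at least a 2-fold change (against 0.0519%). At an unadjusted p under 0.05 there was 1, ZNF383 with a log2 difference of -0.42, and DESeq2 called 0. Of all 15411 genes, 602 were higher and 417 lower at that p in edgeR. Every 9-D library lay above every 9-1 library for 3 members, ZNF585A, ZNF382 and ZNF607 (10.3%, against 6.22% of all genes tested), and below for ZNF383 (3.45%, against 5.52%). The members' log2 differences between the clones ran from -0.44 for ZNF571 to 0.36 for ZNF781.

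The wild-type lines were then compared, H9 over H1, to describe the starting state of each line. Here 8 of 29 members passed (27.6%), against 52.7% of 15802 genes tested. Of these, 3 were higher in H9 (27.1% of all genes were) and 5 lower (25.6%). At least 2-fold were 1 member, ZNF585B, and 8.02% of all genes. Every H9 library lay above every H1 library for 6 members (20.7%, against 30.2% of all genes tested) and below for 5 (17.2%, against 27.9%). The median log2 fold change was -0.02 over the members and 0.01 over all genes. Of the other chromosome 19 zinc finger genes 39.3% of 219 passed, and of zinc finger genes elsewhere 48% of 275.

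Lower in H9 wild type were ZNF585B, ZNF850, ZNF383, HKR1 and ZNF260. ZNF850 had 10.4, 11.5 and 15.2 CPM in H9 wild type, against 24.4, 19.8 and 21.7 CPM in H1 wild type. Every H9 library lay below every H1 library, with a log2 fold change of -0.82 ± 0.12 (adjusted p = 1.15e-07, edgeR, Benjamini-Hochberg). HKR1 followed at -0.34 (adjusted p = 0.000886), ZNF383 at -0.52 (adjusted p = 0.0284) and ZNF260 at -0.17 (adjusted p = 0.0384), by the same edgeR test. ZNF383 lost its call without H1 wild-type replicate 2 (adjusted p = 0.149) or 3 (0.0936) or H9 wild-type replicate 1 (0.104). ZNF260 lost its call in 4 of 15 such fits, without H1 wild-type replicate 1 (0.142) or 3 (0.0976) or H9 wild-type replicate 1 (0.125) or 3 (0.124).

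Higher in H9 wild type were ZNF382, ZNF529 and ZFP82. ZNF382, a KRAB zinc finger repressor reported as silenced in some carcinomas, had 4.24, 3.98 and 5.23 CPM in H9 wild type, against 3.36, 2.26 and 2.67 CPM in H1 wild type. The lines did not overlap, and the log2 fold change was 0.71 ± 0.20 (adjusted p = 0.00265, edgeR, Benjamini-Hochberg). ZNF529 was higher by 0.31 (adjusted p = 0.00588) and ZFP82 by 0.26 (adjusted p = 0.0165). ZNF529 lost its call without H1 wild-type replicate 2 (adjusted p = 0.0683), and ZFP82 lost its call without H1 wild-type replicate 3 (0.0764) or H9 wild-type replicate 3 (0.11). ZNF382 and ZNF529 start head to head on opposite strands, 1 of 6 such pairs among the members. In the other 5 pairs, ZNF461 with ZNF567, ZNF565 with ZNF146, ZNF569 with ZNF570, ZNF790 with ZNF345 and ZNF829 with ZNF568, no gene passed in this comparison.

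**Figure D4:**
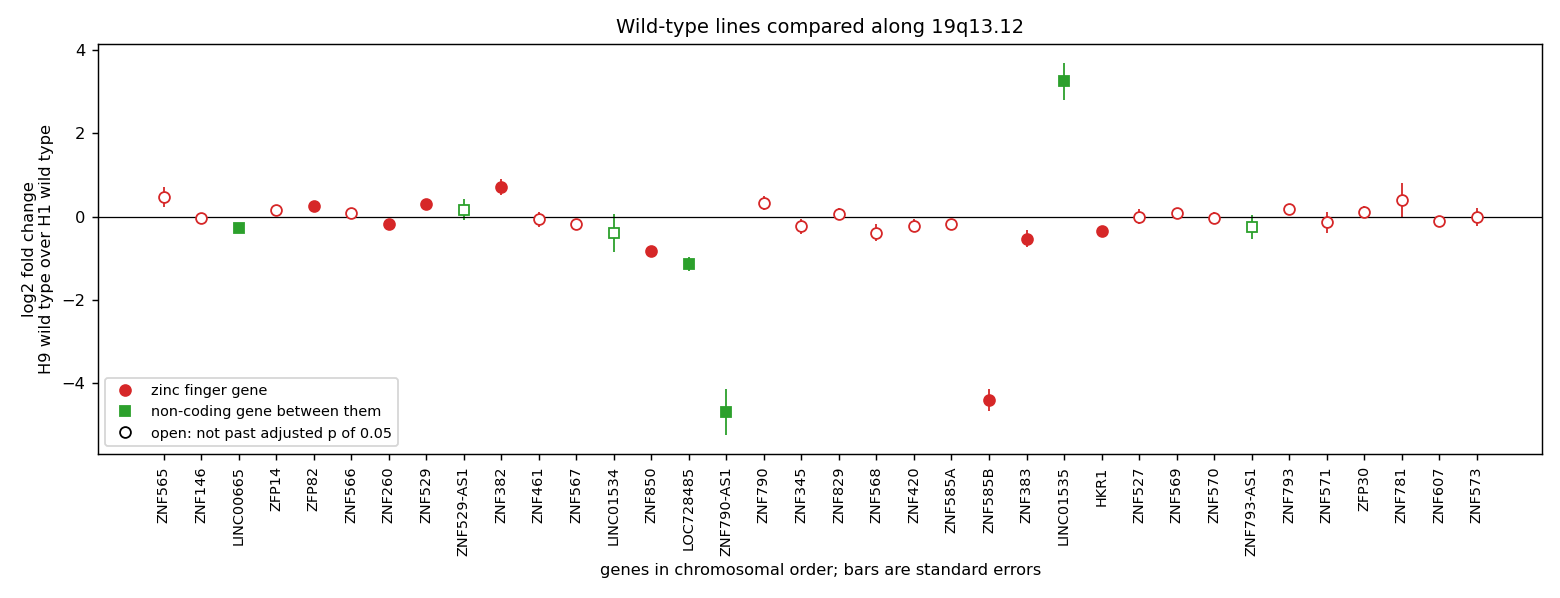
Log2 fold change of H9 wild type over H1 wild type along the band, with standard errors as bars, for the zinc finger genes (circles) and the tested non-coding genes between them (squares), filled where edgeR's adjusted p is under 0.05. Most symbols lie near 0, and ZNF585B at -4.40, ZNF790-AS1 at -4.68 and LINC01535 at 3.25 stand apart.

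Non-coding genes between the members differed between the lines as well. Of the 9 found in the count tables, 7 were tested and 4 passed (57.1%, against 52.7% of all genes), 3 of them with at least a 2-fold change, while DESeq2 called 5 of the 9. ZNF790-AS1, which RefSeq places beside ZNF790, had 1, 1 and 1 reads in H9 wild type, against 21, 35 and 22 reads in H1 wild type. Per total counts it was 28.3-fold lower in H9 wild type (exact 95% counting interval 9.35 to 140). ZNF790 itself did not pass, at a log2 fold change of 0.33 (adjusted p = 0.0952, edgeR, Benjamini-Hochberg). The counting is not stated to use strand, so reads of overlapping genes on opposite strands cannot be told apart.

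LINC01535, between ZNF383 and HKR1, showed the opposite state. It had 1.86, 1.65 and 2.15 CPM in H9 wild type, against 0.16, 0.258 and 0.144 CPM in H1 wild type, a log2 fold change of 3.25 ± 0.45 (adjusted p = 6.38e-08, edgeR, Benjamini-Hochberg). LOC728485, beside ZNF850, was lower in H9 wild type by a log2 fold change of -1.15 ± 0.17 (adjusted p = 2.06e-07), at 3.34, 3.71 and 3.01 CPM, against 6.33, 7.94 and 7.80 CPM in H1 wild type. None of the 6 tested in each line passed in a knockout comparison, 0 by edgeR and 0 by DESeq2 in H1, 9-1 and 9-D. ZNF790-AS1, at 0 or 1 reads per library in clones 9-1 and 9-D, had too few reads to be tested within H9, and LINC01535 was at 1.41 to 1.77 CPM in 9-1 and 1.51 to 2.33 CPM in 9-D. At an unadjusted p under 0.05 edgeR gave 0 of these genes in H1, 0 in 9-1 and 1 in 9-D. Of all genes, 1829 were higher and 2050 lower at that p in H1 (14897 tested). In H9 (15411 tested) there were 2727 and 2863 in 9-1 and 2588 and 2693 in 9-D.

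**Figure D5:**
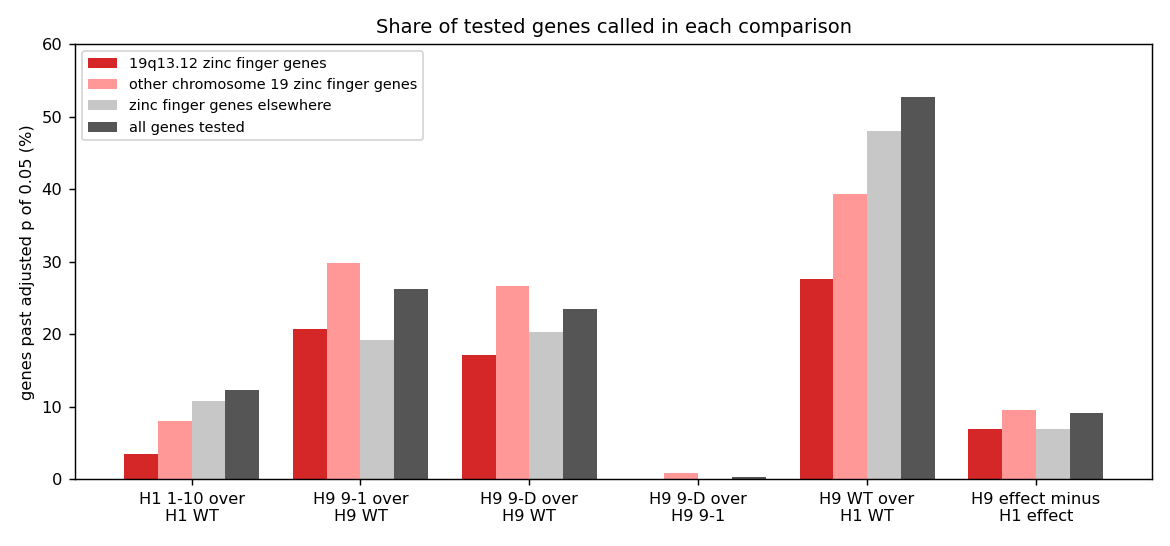
Percent of tested genes past an adjusted p of 0.05 in each of 6 comparisons, for the 19q13.12 zinc finger genes, the other chromosome 19 zinc finger genes, zinc finger genes elsewhere and all genes. The 19q13.12 bars (3.45, 20.7, 17.2, 0, 27.6 and 6.9%) are no higher than those of all genes (12.3, 26.3, 23.5, 0.305, 52.7 and 9.21%).

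Genes of KRAB silencing, chromatin and DNA methylation were listed to set beside the members. The list also held the TET enzymes TET1, TET2 and TET3 and the KRAB zinc finger genes ZFP57 and ZNF445. It is therefore not a list of silencing partners alone. Of 33 listed genes, 3 rose and 5 fell in H1 clone 1-10 (32 tested), 4 rose and 4 fell in clone 9-1, and 3 rose and 4 fell in clone 9-D. Those called made up 25% in H1, 24.2% in 9-1 and 21.2% in 9-D, against 12.3, 26.3 and 23.5% of all genes tested. The median log2 fold changes over the listed genes tested were 0.03, 0.01 and -0.03. TRIM28, the corepressor, had 1340 to 1440 CPM in clone 9-1 and 1300 to 1480 CPM in clone 9-D, against 1230 to 1280 CPM in H9 wild type, and did not pass (log2 fold change 0.13 and adjusted p = 0.0646 in 9-1, 0.14 and 0.0671 in 9-D, edgeR, Benjamini-Hochberg). SETDB1 had 48.3 to 54.3 CPM in 9-1 and 49 to 51.8 CPM in 9-D, against 51.8 to 53.9 CPM in H9 wild type, and did not pass either. Between the lines, H9 wild type over H1 wild type, 2 of the 33 were higher and 21 lower (69.7% called, against 52.7% of all genes), among them TRIM28 with a log2 fold change of -0.33 (adjusted p = 4.41e-07, edgeR).

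DNMT3L, the catalytically inactive partner of the DNA methyltransferases that set new methylation, was the only listed gene past a 2-fold change. It had 4, 5.86 and 6.44 CPM in clone 9-1 and 7.02, 4.31 and 7.27 CPM in clone 9-D, against 2.18, 2.06 and 2.34 CPM in H9 wild type. It was off in H1, with 0 to 6 reads per library. The log2 fold changes were 1.31 ± 0.22 in 9-1 (adjusted p = 1.15e-05) and 1.5 ± 0.21 in 9-D (adjusted p = 8.98e-07), by edgeR, Benjamini-Hochberg. DNMT3L and ZNF585B both rose in both H9 clones, while 12.8% of all genes tested rose in 9-1 and 11.5% in 9-D. In H1 ZNF585B was on. A link between these genes was not tested.

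Per exon length, levels spanned a wide range within the band. After ZNF146 came ZFP82 with 10.4, ZNF260 with 8.27, HKR1 with 5.58 and ZNF607 with 5.10 CPM per kb, as medians over 15 libraries. At the low end were ZNF540 with 0.0954 and ZNF781 with 0.249 CPM per kb, below ZNF382 with 0.391 and ZNF383 with 0.394. Neighbours in this order differ by little, and ZNF383, ZNF571 (0.396) and ZNF568 (0.413) cannot be ordered. ZNF607 was the steadiest, with its highest library 1.22 times its lowest in CPM, and ZNF585B the most variable, at 34.3 times. Apart from ZNF585B, ZNF540 and ZNF781, this ratio was at most 3.08, for ZNF382.

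ZNF568, ZNF420, ZNF461 and ZNF781 passed in no comparison. ZNF568, whose mouse counterpart represses a placental transcript of Igf2, had 2.52 to 4.39 CPM over the 15 libraries. ZNF420, which holds back apoptosis driven by p53, had 5.54 to 11.3 CPM, and ZNF461, found as a gene induced by gonadotropin, 3.64 to 5.73 CPM. The pseudogene ZNF781 had 0.351 to 1.85 CPM and was neither on nor off in any group. The other members that passed in no comparison, ZNF565, ZFP14, ZNF567, ZNF790, ZNF345, ZNF829, ZNF527, ZNF569, ZNF570, ZNF793, ZFP30, ZNF607 and ZNF573, had log2 fold changes in the knockout comparisons between -0.25 (ZFP14 in 9-1) and 0.42 (ZNF527 in 9-1). The 20 protein-coding genes flanking the band, 10 on each side, held 0 genes that were on in 1 group and off in another, against 0.929% of all genes. Of the 15 of them tested in H1, 0 rose and 1 fell (6.67%, against 12.3% of all genes). Of the 17 tested in H9, 4 rose and 1 fell in clone 9-1 (29.4%, against 26.3%), and 3 rose and 1 fell in clone 9-D (23.5%, against 23.5%).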

How the data were processed

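Polyadenylated RNA of 18 libraries had been made with a NEBNext kit, per the labels' protocols. The authors deposited whole read counts per gene symbol, aligned with STAR to hg19 and counted with featureCounts, per the submitters' processing notes. Versions, strand setting and read length are not given in the sources used here. The authors' tables of fold changes give, per the file headers, log2 values and adjusted p-values from DESeq2. Those on single libraries were not used.

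The counts were tested with edgeR 4.0.16 (R 4.3.3): TMM scaling, filterByExpr, quasi-likelihood F test, Benjamini-Hochberg adjustment over all genes and a threshold of 0.05. H1 (6 libraries) and H9 (9) had a model each, and all 15 entered a joint one for wild-type lines and effect differences. Log2 fold changes are knockout over wild type, 9-D over 9-1 or H9 over H1. Each SE is the absolute log2 fold change over the square root of F. The script was tested on simulated data. Alternatives were DESeq2 1.42.0, other size factors, no filter, 1 joint model, a replicate block and leaving out each library. Replicates differed by more than counting error (chi-square per gene 1.83 to 5.94 over 15 pairs), so none was a duplicate.

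Members and lists were chosen with earlier results of these data known. Full values were given for members on in 1 group and off in another, past a 2-fold change, or, added after values were seen, called in any comparison. ZNF585A, ZNF383, ZNF263, TRIM28 and SETDB1 were also given. Exon lengths and shared stretches came from GENCODE v29, and neighbours, strands and promoters from RefSeq GRCh38.p14, with 24340 symbols matched and 1313 by older names. Its build differs from that of the counts.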

Additional observations from a re-analysis of the deposited data

Results flagged for a closer look

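The knockout effect differed between the lines for 2 of the 29 members tested, by a Benjamini-Hochberg adjusted edgeR test of the difference. For ZNF585B the effect in H9 exceeded that in H1 by 3.77 on the log2 scale (SE 0.32, adjusted p = 5.5e-12), with all 6 H9 knockout libraries above all 3 H9 wild-type libraries. For HKR1 it exceeded that in H1 by 0.42 (SE 0.11, adjusted p = 0.0112), again with all 6 H9 knockout libraries above wild type. Every knockout library lay above every wild-type library for 20.7% of all genes tested in 9-1 and 18.2% in 9-D. The band was chosen with the rise of ZNF585B in H9 known, so the test of ZNF585B is no independent evidence of it. Both differences use the same H9 wild-type libraries, where both genes were lower than in H1 wild type. The means were 0.385 against 8.36 CPM for ZNF585B and 23.5 against 29.5 CPM for HKR1. A knockout effect particular to H9 and a difference in starting state cannot be told apart here. When each of the 15 libraries was left out in turn, the ZNF585B difference kept its call in all 15 fits, and that of HKR1 lost its call without H1 wild-type replicate 2 (adjusted p = 0.0637, edgeR).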

How the results depend on the processing

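No called member changed direction under any alternative. The switch of ZNF585B depended on the state rule: with CPM by total counts, or with on at 2 CPM and off under 0.25 CPM, 0 members were on in 1 group and off in another, against 1. Its differences in H9 passed in each fit. Leaving out 1 library in turn, the number of members past the threshold ran from 0 to 2 in H1, from 4 to 8 in clone 9-1, from 3 to 6 in clone 9-D, from 5 to 8 between wild-type lines and from 1 to 3 for the difference of effects, and was 0 between the clones. These counts moved by more than 1.5 times without clone 1-10 replicate 2 (2 in H1, with ZNF146 added) or 3 (0), without H9 wild-type replicate 1 or 2 or 9-D replicate 1 (3 in 9-D), without H1 wild-type replicate 3 (5 between lines) and without H1 wild-type replicate 2 (1 for the difference of effects). DESeq2 called 1, 4, 4, 0, 7 and 2 members in H1, 9-1, 9-D, 9-D against 9-1, wild-type lines and the difference of effects. Shares of all genes under these alternatives were not set beside the member counts, so the counts tell only how stable the calls were. Without the filter ZNF260 lost its call between wild-type lines (adjusted p = 0.064).

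Replicate numbers were not taken as pairs, since deviations of same-numbered libraries correlated at -0.0268 to 0.0796 and the labels name nothing shared. In H1 every clone 1-10 library correlated best with its own number, a hint from the data and not from the design. Replicate 2 stood apart in both H1 groups, with a chi-square per gene of 3.93 and 4.26 to the others in clone 1-10 and 3.41 and 3.44 in wild type, against 1.83 and 1.92 between replicates 1 and 3. In H9 not every library matched its own number. With the replicate number as a block, 1, 6, 5, 0, 8 and 3 members passed in the same order, ZNF260 being added to the difference of effects. Over all genes the block raised the calls in H1 to 2926, against 1827 without it. Members at low counts, ZNF540 above all, were limited by depth.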
